A study of Mus musculus with 6 samples.

Results

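The SOX transcription factors of neural development were followed in the cerebellum of mice that lacked Crebbp in the granule neuron lineage. They are 10 genes of 22180 measured, taken by name: Sox4, Sox11 and Sox12 of the SoxC group, Sox1, Sox2 and Sox3 of SoxB1, Sox5 and Sox6 of SoxD, and Sox8 and Sox9 of SoxE. Each was read from the probe set that carries its symbol alone. Where a gene had several, the probe set was chosen by its mean log2 value over all 6 arrays, the highest being kept, which uses both groups and not their difference. The list itself and the contrast of SoxC with the other 7 genes were drawn up with earlier results of these arrays known, so counts over the members and that contrast are given as descriptions, without a test, and the p-values of single members come from the fit over all genes and are no independent support for the choice. RNA came from cerebellum at postnatal day 7, with 3 arrays a group. Wild-type animals carried Math1Cre with unaltered Crebbp, and knockout animals carried Math1Cre with floxed Crebbp on both alleles (CrebbpFl/Fl), so the Cre driver was present in both groups. Cre under Math1 acts in granule neuron precursors and their progeny, while the RNA came from the whole tissue, which also holds Purkinje cells, interneurons, glia and other cells with an intact gene. In such bulk samples fewer cells of a type and less RNA per cell cannot be told apart. Nothing in the labels says that the arrays of a group came from separate animals, so p-values measure the spread between these samples, which may in part be technical.

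SOX proteins bind the minor groove of DNA through a high-mobility-group box and bend it, and they usually act with a partner factor such as a POU or PAX protein. In neural tissue the SoxB1 proteins keep progenitors undifferentiated, SoxC proteins take over in newly born neurons and switch on neuronal genes, and SoxE proteins serve glial cells. SoxD proteins have no activation domain of their own and modulate the others. In the early postnatal cerebellum SoxC genes are expressed in the granule lineage as it leaves the cell cycle, and Sox2 and Sox9 mark Bergmann glia and astrocytes. CREBBP, the protein lost here, is a lysine acetyltransferase that many transcription factors recruit.

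Values are deposited log2 expression values. A change is the knockout mean less the wild-type mean, in log2 units, and its standard error (SE) comes from a limma fit over all genes. A gene is said to rise or fall only where its Benjamini-Hochberg adjusted p over the 22180 genes was under 0.05. Crebbp, between 11.90 and 11.99 in wild type and between 11.32 and 11.46 in knockout, fell by 0.56 (SE 0.05, adjusted p = 0.000354), and the labels do not say whether its probe set covers the floxed part of the gene. Of 18 markers of early and migrating granule neurons, 17 had a mean above 8.86, the 75th percentile of all values, as did 7 of 10 Purkinje cell markers. Some arrays stood apart. The choroid plexus epithelium gene Ttr read 12.30 on wild-type array 1, 13.77 on knockout array 1 and 13.92 on knockout array 3, against 8.08 to 9.19 on the other 3. Markers of the oligodendrocyte lineage were low on 2 of these arrays: the mean of 12 such genes lay 0.44 below the wild-type mean on knockout array 1 and 0.81 below it on knockout array 3, and within 0.07 of it on every other array. The part of these cells in the results was not tested, and values from a fit with the mean of the 9 choroid plexus markers as a covariate, or without these arrays, are given beside the calls they end or the changes they turn or move most.

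Of the 10 SOX genes 1 fell, Sox12, and 0 rose in limma. Over all genes 3.94% fell and 2.72% rose (6.67% in all; 875 and 604 genes, or 1084 and 440 after the arrays were centred on their medians). At an unadjusted p under 0.05, 4 members were lower (Sox4, Sox11, Sox12 and Sox5) and 0 higher, against 10.9% and 9.57% of all genes. The median change was -0.14 over the members and -0.0028 over all genes, and 9 of 10 members had a change below 0, as had 50.9% of all genes. The groups did not overlap for 4 of 10 members, each lower in the knockout. Of all genes 25% had groups that did not overlap, and 13.1% had every knockout value below every wild-type value.

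**Figure D1:**
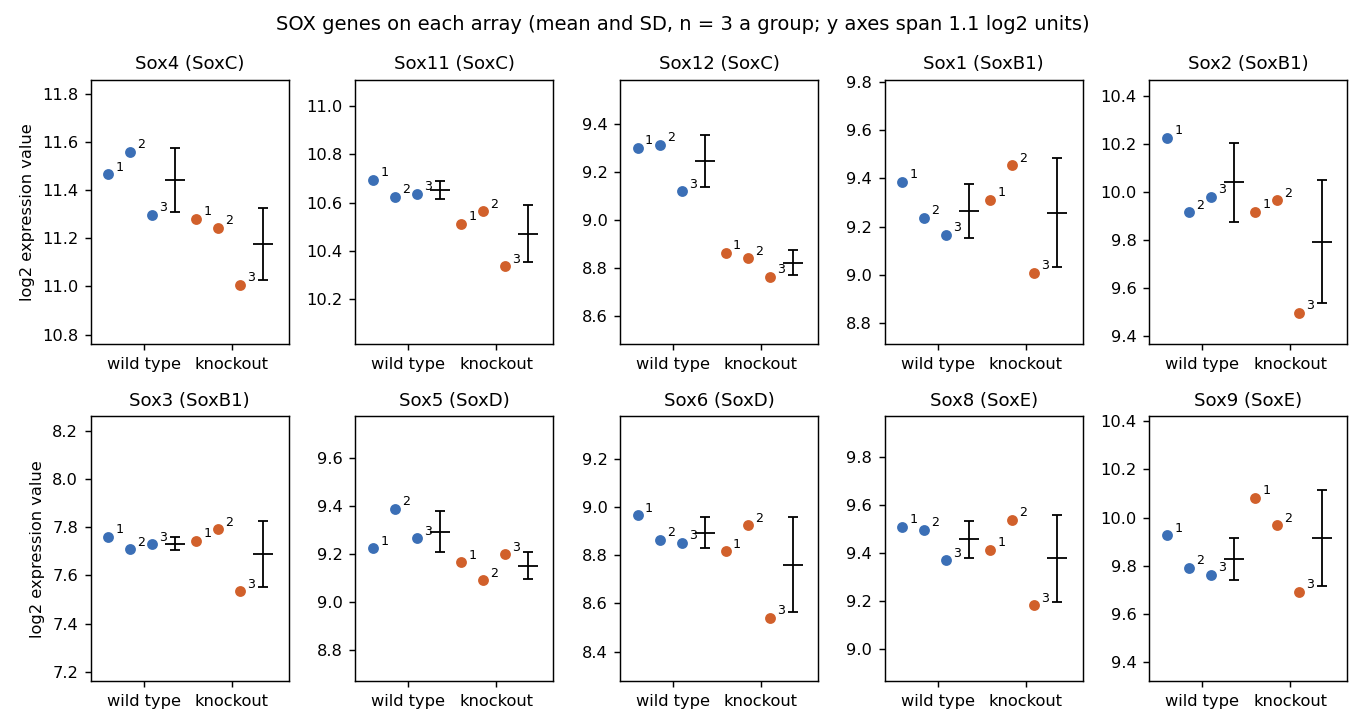
Log2 expression value (y axis, own range for each gene, 1.1 log2 units high) of the 10 SOX genes on the 3 wild-type (blue) and 3 knockout (orange) arrays, with the replicate number beside each point and the mean and SD as black bars. The groups do not overlap for Sox4, Sox11, Sox12 and Sox5, and knockout array 3 is the lowest of all 6 for every gene but Sox5.

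The promoters of the SoxC genes are shown because SoxC is the group set against the other 7 members. All 3 genes read lower on every knockout array than on any wild-type array, as did Sox5, whose promoter is not printed. RefSeq promoter windows (build GRCm38.p6) were found for 8 of the 10 members, all but Sox3 and Sox9. The 250 bases before the start are given on the gene's own strand, which is the minus strand in each case, from chr13:28953700-28953949 (Sox4), chr12:27342719-27342968 (Sox11) and chr2:152398047-152398296 (Sox12). They were searched on both strands for the palindromic cAMP response element, which CREB binds, for its core TGACG, which lies within it, and for the SOX core ACAAT. Matches are in capitals.
Sox4: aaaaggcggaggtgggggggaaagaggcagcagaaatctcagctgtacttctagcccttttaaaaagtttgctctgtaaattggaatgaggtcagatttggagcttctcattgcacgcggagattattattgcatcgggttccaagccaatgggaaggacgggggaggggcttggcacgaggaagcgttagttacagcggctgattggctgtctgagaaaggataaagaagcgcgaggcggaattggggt
Sox11: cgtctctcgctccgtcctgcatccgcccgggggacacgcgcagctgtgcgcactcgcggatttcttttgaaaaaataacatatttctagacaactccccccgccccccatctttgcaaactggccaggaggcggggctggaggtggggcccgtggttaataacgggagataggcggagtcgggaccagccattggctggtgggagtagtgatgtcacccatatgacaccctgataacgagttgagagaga
Sox12: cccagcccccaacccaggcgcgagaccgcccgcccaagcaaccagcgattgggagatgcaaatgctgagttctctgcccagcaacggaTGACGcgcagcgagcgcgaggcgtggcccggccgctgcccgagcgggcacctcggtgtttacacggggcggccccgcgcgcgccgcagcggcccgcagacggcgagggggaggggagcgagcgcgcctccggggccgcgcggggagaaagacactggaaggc
Sox12 held 1 match, TGACG beginning 162 bases before the start, and Sox4 and Sox11 held none of the 3 motifs in these windows. TGACG occurred in 17.8% of 32851 windows of this length, ACAAT in 27.7% and the full element in 1.55%. Of the 8 members with a window, 2 had TGACG (Sox12 and Sox6, in 1 of its 6 windows), 2 had ACAAT (Sox5 and Sox6) and 0 had the full element. A match describes the letters only, and no match says only that the letters are not in this window. The SoxC windows differed in composition: G and C made up 50.8% of the bases in Sox4, 58.0% in Sox11 and 74.4% in Sox12, where the median over all windows was 52.4%.

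Sox12, the SoxC member with the weakest transactivation domain, had the largest change of the 10 members. It read 9.30, 9.31 and 9.12 in wild type and 8.86, 8.84 and 8.76 in knockout. The groups lay 0.26 apart at their nearest values, more than the range within either group (0.19 in wild type, 0.10 in knockout). Sox12 fell by 0.42 (SE 0.07, adjusted p = 0.00552). This is a 1.34-fold difference (95% confidence interval 1.21 to 1.48). It passed whichever array was left out, with changes of -0.49 to -0.39 and adjusted p of 0.00489 to 0.0361, and when the choroid plexus markers entered the fit (change -0.41, adjusted p = 0.0422). On the 3 arrays with low Ttr, of which 1 was a knockout array, the change was -0.38 and did not pass (adjusted p = 0.180).

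Sox4, which acts with Sox11 to establish neuronal gene expression in newborn neurons, read 11.47, 11.56 and 11.30 in wild type and 11.28, 11.24 and 11.01 in knockout. The groups did not overlap, but wild-type array 3 and knockout array 1 were only 0.02 apart, less than the spread within either group. Its change was -0.26 and did not pass (SE 0.08, 95% confidence interval -0.45 to -0.08, adjusted p = 0.0970). A second probe set of Sox4, the only other probe set of any member, read 8.67, 8.61 and 8.76 in wild type and 8.48, 8.58 and 8.11 in knockout. Tested on its own in the table of 23521 probe sets, it changed by -0.29 (SE 0.11, adjusted p = 0.174), so both probe sets of Sox4 were lower on every knockout array than on any wild-type array and neither passed. Without knockout array 3 the change of the first probe set was -0.18 (adjusted p = 0.211). With the choroid plexus covariate it was -0.19 (adjusted p = 0.409), and on the 3 arrays with low Ttr it was -0.19 (0.638).

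Sox11, a single-exon gene needed for the survival and maturation of young neurons, read 10.69, 10.62 and 10.64 in wild type and 10.51, 10.56 and 10.34 in knockout. Wild-type values were tight, with an SD of 0.04, and all lay above the knockout values, whose SD was 0.12. Its change of -0.18 did not pass (SE 0.06, 95% confidence interval -0.32 to -0.04, adjusted p = 0.123). It was -0.11 without knockout array 3 (adjusted p = 0.255), -0.10 with the choroid plexus covariate (0.531) and -0.07 on the 3 arrays with low Ttr (0.889).

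Among the SoxB1 genes, 0 of 3 passed and in each the groups overlapped. Sox2, the factor that maintains neural stem cells and is kept on in Bergmann glia, read 10.23, 9.92 and 9.98 in wild type and 9.92, 9.97 and 9.50 in knockout. A single low array, knockout 3, lay 0.44 below the mean of the other knockout arrays, which were within the wild-type range. The change of -0.25 had a wide error (SE 0.12, 95% confidence interval -0.51 to 0.02, adjusted p = 0.288), and without knockout array 3 it was -0.10. With the choroid plexus covariate it was -0.12 (adjusted p = 0.754) and on the 3 arrays with low Ttr 0.02 (0.977).

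Sox1, which is also expressed in Bergmann glia, read 9.39, 9.24 and 9.17 in wild type and 9.31, 9.45 and 9.01 in knockout. The highest and the lowest value were both knockout arrays, and the change was -0.01 (95% confidence interval -0.24 to 0.23, adjusted p = 0.986). Sox3, the X-linked member of the group, was steady in wild type at 7.76, 7.71 and 7.73 and read 7.74, 7.79 and 7.53 in knockout. Its change was -0.04 (95% confidence interval -0.22 to 0.14, adjusted p = 0.844). For both genes the other knockout arrays together lay slightly above wild type, by 0.12 for Sox1 and 0.04 for Sox3. Their changes were 0.14 (Sox1) and 0.05 (Sox3) with the choroid plexus covariate, and on the 3 arrays with low Ttr 0.25 and 0.07, none past the threshold.

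Of the SoxD genes, which bind DNA as dimers through a coiled coil, 0 of 2 passed. Sox5 read 9.22, 9.39 and 9.26 in wild type and 9.16, 9.09 and 9.20 in knockout. The groups did not overlap, with a gap of 0.02, and the change was -0.14 (SE 0.06, 95% confidence interval -0.28 to -0.01, adjusted p = 0.225). With the choroid plexus covariate it was -0.17 (adjusted p = 0.313) and on the 3 arrays with low Ttr -0.24 (0.398). Sox5 was the member that did not have its lowest value on knockout array 3. Sox6, its closest relative, read 8.97, 8.87 and 8.85 in wild type and 8.82, 8.92 and 8.54 in knockout. Its groups overlapped. Its change of -0.13 (95% confidence interval -0.34 to 0.07, adjusted p = 0.476) was -0.02 without knockout array 3, -0.0022 with the choroid plexus covariate and 0.07 on the 3 arrays with low Ttr.

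Of the SoxE genes 0 of 2 passed. Sox9, which starts gliogenesis and is kept on in astrocytes and Bergmann glia, read 9.93, 9.79 and 9.76 in wild type and 10.08, 9.97 and 9.69 in knockout. It was the only member with a change above 0, at 0.09 (95% confidence interval -0.12 to 0.29, adjusted p = 0.678). Knockout arrays 1 and 2 exceeded every wild-type array and knockout array 3 was below them all. Without knockout array 3 the change was 0.20 (SE 0.07, adjusted p = 0.128), with the choroid plexus covariate 0.15 (0.597) and on the 3 arrays with low Ttr 0.19 (0.474). Sox8, which shares oligodendrocyte and glial functions with Sox9 and Sox10, read 9.51, 9.50 and 9.37 in wild type and 9.41, 9.54 and 9.18 in knockout, a change of -0.08 with overlapping groups (95% confidence interval -0.27 to 0.11, adjusted p = 0.687). It was 0.05 with the choroid plexus covariate and 0.11 on the 3 arrays with low Ttr.

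**Figure D2:**
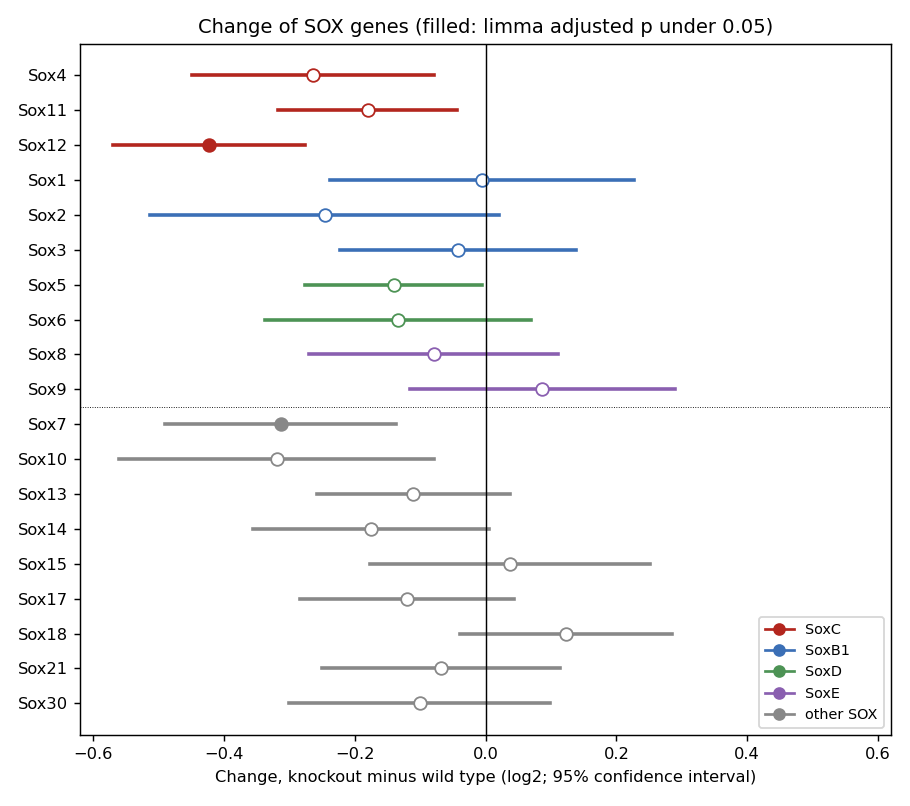
Change of the 10 SOX members (coloured by group) and of 9 other SOX genes (grey) (x axis, knockout mean less wild-type mean, log2), with the 95% confidence interval of the limma fit; filled circles mark genes with an adjusted p under 0.05. Sox12, at -0.42, and Sox7, at -0.31, are the filled circles, and the intervals of Sox4, Sox11, Sox5 and Sox10 also lie below 0 without passing after adjustment.

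Set beside each other, the median change of the 3 SoxC genes was -0.26 and that of the other 7 was -0.08, a difference of -0.18. This contrast was chosen with the values known and has no test. Array by array, the mean of the SoxC genes relative to their wild-type means was 0.04, 0.05 and -0.09 in wild type and -0.23, -0.23 and -0.41 in knockout, so every knockout array was below every wild-type array. The mean of the other 7 was 0.07, -0.01 and -0.05 in wild type and -0.01, 0.03 and -0.26 in knockout, with knockout arrays 1 and 2 among the wild-type values. SoxC minus the other 7 was -0.22, -0.26 and -0.15 on the knockout arrays and -0.04 to 0.07 on the wild-type arrays.

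**Figure D3:**
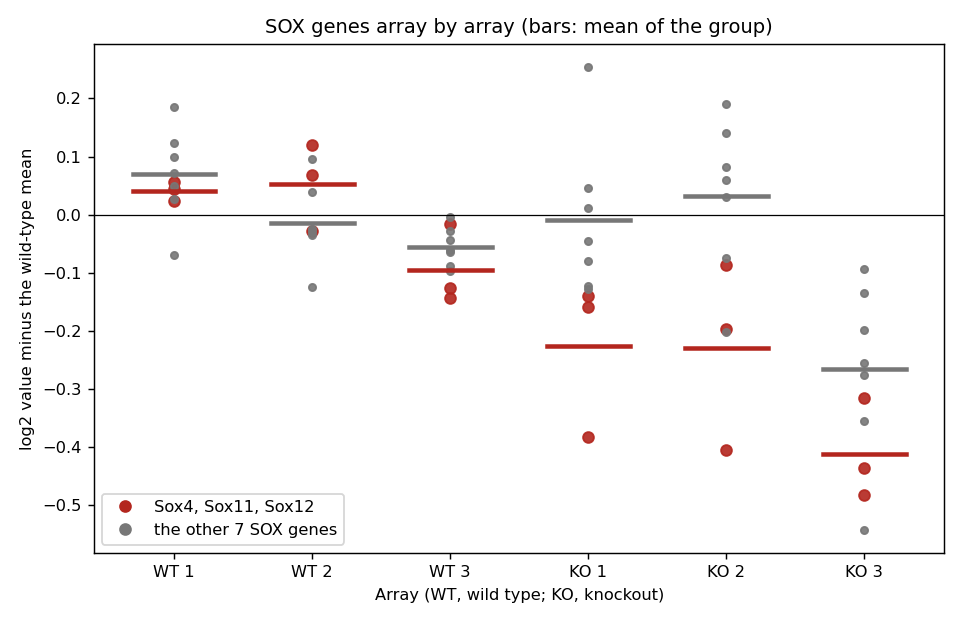
Log2 value minus the gene's wild-type mean (y axis) on each array (x axis), for Sox4, Sox11 and Sox12 (red) and the other 7 SOX genes (grey), with bars at the mean of each set. The red bars lie at -0.23, -0.23 and -0.41 on the knockout arrays, and the grey bar leaves the wild-type range on knockout array 3 alone, at -0.26.

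The spread among the knockout arrays came largely from 1 of them. Knockout array 3 was the lowest of the 3 knockout arrays for 9 of 10 members and the lowest of all 6 arrays for the same 9. Over all genes it was the lowest knockout array for 39.3% and the lowest of all arrays for 22.4%. The median SD of the members was 0.09 in wild type and 0.17 in knockout, where all genes had 0.08 and 0.09. Knockout array 3 also had the highest Ttr value and the highest mean of the 9 choroid plexus markers (9.72, against 7.26 to 9.05 on the other 5 arrays). It had the lowest mean of the 12 oligodendrocyte markers (8.73, against 9.10 to 9.59). Meninges and mesenchyme markers were highest there as well. Their mean lay 0.41 above the wild-type mean, against -0.04 to 0.09 on the other 5 arrays. On knockout array 1, where choroid plexus values were also raised, the SoxC genes, Sox5 and Sox6 read below every wild-type array and Sox9 above every one. The mean of the other 7 SOX genes lay at -0.01 there relative to wild type. On knockout array 2, where the choroid plexus mean was 7.27, the SoxC genes and Sox5 were also below every wild-type array and Sox9 above. Sox6, at 8.92, was within the wild-type range there. The part of the marker differences in the SOX values was not tested.

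**Figure D4:**
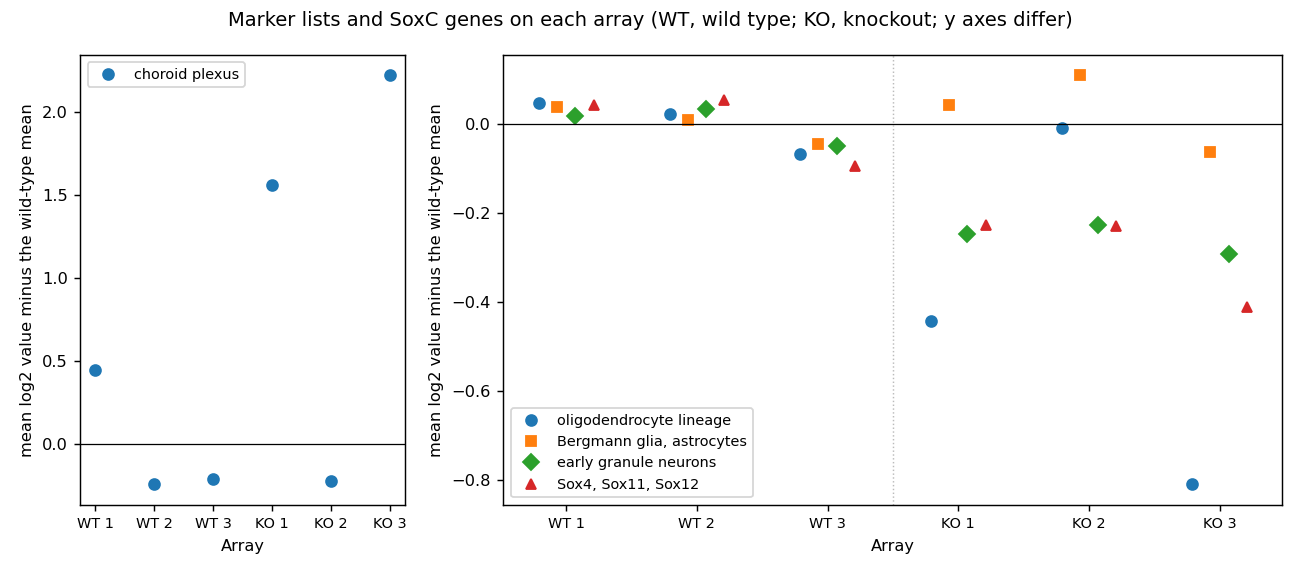
Mean log2 value of a gene list minus its wild-type mean (y axis) on each array (x axis), for 9 choroid plexus markers (left) and, on a narrower scale, for oligodendrocyte, Bergmann glia and astrocyte, and early granule neuron markers and the 3 SoxC genes (right). Choroid plexus markers are high on knockout arrays 1 (1.56) and 3 (2.22), oligodendrocyte markers are low there (-0.44 and -0.81), and SoxC genes and early granule neuron markers are low on all 3 knockout arrays.

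Of 9 further SOX genes measured, 1 fell and 0 rose (0 at an unadjusted p under 0.05). Sox7, a SoxF factor of vascular endothelium, read 7.69, 7.74 and 7.63 in wild type and 7.31, 7.31 and 7.50 in knockout. It fell by 0.31 (SE 0.08, adjusted p = 0.0448), close to the threshold, and did not pass without wild-type array 1 (adjusted p = 0.142), 2 (0.145) or 3 (0.0699) or without knockout array 1 (0.140) or 2 (0.110). Its change was -0.38 (adjusted p = 0.0792) with the choroid plexus covariate, and on the 3 arrays with low Ttr it was -0.37 (0.262). The other SoxF genes did not pass: Sox17 changed by -0.12 (adjusted p = 0.418) and Sox18 by 0.12 (adjusted p = 0.401), and 0 of 8 endothelial markers passed, with a median of 0.02 (0 at an unadjusted p under 0.05). Sox10, the SoxE factor of the oligodendrocyte lineage, read 8.44, 8.41 and 8.41 in wild type and 7.97, 8.39 and 7.94 in knockout. Its change of -0.32 did not pass (SE 0.11, adjusted p = 0.120). Knockout arrays 1 and 3 were low and knockout array 2 was at 8.39, the order seen for the oligodendrocyte markers. Without knockout array 2 it passed, with a change of -0.46 (adjusted p = 0.00569), with the choroid plexus covariate its change was -0.11 (adjusted p = 0.594) and on the 3 arrays with low Ttr -0.02 (0.976). The SoxB2 genes Sox14 and Sox21, which oppose SoxB1 proteins, changed by -0.18 (adjusted p = 0.262) and -0.07 (adjusted p = 0.721). Sox13 of the SoxD group changed by -0.11 (adjusted p = 0.406), Sox15 by 0.04 (adjusted p = 0.887) and Sox30 by -0.10 (adjusted p = 0.608).

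Of 12 measured neuronal genes linked to SoxC in young neurons, 7 fell, 0 rose (0 at an unadjusted p under 0.05) and 5 did not pass, with a median change of -0.21. Nefl, the light neurofilament chain, fell by 0.63 (SE 0.11, adjusted p = 0.00988). Insm1, a zinc finger factor of newborn neurons, fell by 0.32 (adjusted p = 0.00556), and Stmn1, a microtubule destabiliser, by 0.27 (adjusted p = 0.00849). The list shares 4 genes with the early granule neuron markers, of which 12 of 18 fell and 1 rose with a median of -0.24. Of 16 markers of maturing granule neurons 9 fell and 0 rose, with a median of -0.29. Markers of granule neuron precursors went both ways: of 14, 3 rose and 3 fell, with a median of 0.06. With the choroid plexus covariate 2 of these 14 rose and 1 fell, with a median of 0.12. Over all genes 3.94% fell and 2.72% rose. The number of the 12 genes that fell was 2 without wild-type array 1, where Nefl had an adjusted p of 0.0580, 4 without wild-type array 2 and 6 without knockout array 3, with medians of -0.21, -0.19 and -0.20. It was 1, Insm1 (adjusted p = 0.0454), once the fit held the mean of the choroid plexus markers. In that fit Nefl changed by -0.46 (adjusted p = 0.0709) and Stmn1 by -0.26 (0.0582). The median of the 12 genes was -0.21 there and on the 3 arrays with low Ttr, of which 1 was a knockout array. On these 3 arrays Nefl changed by -0.40, Insm1 by -0.26 and Stmn1 by -0.27, and their calls were not kept. The fall count of the early granule neuron markers was 6 without wild-type array 1 or knockout array 1 and 7 without wild-type array 2. Their medians were -0.23, -0.25 and -0.20 there. In the fit with the choroid plexus markers 5 fell (median -0.19). On the 3 arrays with low Ttr fewer fell than in the main fit, and the median was -0.20. Over all genes 875 fell in the main fit. Without wild-type array 1 or 2, 366 and 462 genes fell, and without knockout array 1 or 3, 528 and 617. In the fit with the choroid plexus markers 311 genes fell.

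Of 13 measured transcription factors that work beside SOX proteins in neural cells, 5 fell, 0 rose (1 was higher at an unadjusted p under 0.05) and 8 did not pass, with a median of -0.10. Prox1, a homeobox factor of maturing neurons, fell by 0.53 (adjusted p = 0.00922) and Insm1, also in the list above, by 0.32. Pax6, a partner of Sox2 and a factor of the granule lineage, fell by 0.30, with 11.26 ± 0.06 in knockout against 11.56 ± 0.02 in wild type (SD, n = 3 each, limma adjusted p = 0.00423). None of the 4 POU partners, named after their values were seen, passed: Pou3f1 changed by -0.10 (adjusted p = 0.638), Pou3f2 by -0.01 (0.969), Pou3f3 by -0.20 (0.171) and Pou3f4 by 0.09 (0.596). The number that fell was 3 without wild-type array 1 and 2 (Pax6 and Insm1) in the fit with the choroid plexus markers. The median was -0.09 in each. Over all genes 366 and 311 fell in these fits, against 875 in the main fit. Prox1 changed by -0.37 (adjusted p = 0.0543) in the fit with the choroid plexus markers. On the 3 arrays with low Ttr the median of the 13 factors was -0.07. Pax6 changed by -0.33 there, Insm1 by -0.26 and Prox1 by -0.38, and their calls were not kept.

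Genes downstream of SoxB1 proteins and Sox9 in progenitors and glia went both ways: of 13 measured 1 rose, 2 fell and 10 did not pass, with a median of -0.01. Gfap, the astrocyte intermediate filament, rose by 0.45 (adjusted p = 0.00459). Egfr, a growth factor receptor of progenitors, fell by 0.25 (adjusted p = 0.0252) and Nfia, which acts with Sox9 at the start of gliogenesis, by 0.19 (adjusted p = 0.0300). The rise of Gfap was kept without knockout array 3 (0.50), with the choroid plexus covariate (0.56) and on the 3 arrays with low Ttr (0.48, adjusted p = 0.0409), while neither fall passed in these fits (Egfr -0.22, -0.26 and -0.23, Nfia -0.16, -0.16 and -0.15). Egfr also missed the threshold without wild-type array 1 (adjusted p = 0.122) or 2 (0.0689) or knockout array 2 (0.0615), and Nfia without wild-type array 1 (0.129) or 2 (0.0879) or knockout array 1 (0.0689). The markers of Bergmann glia and astrocytes, the cells in which Sox2 and Sox9 are expressed, had a median of 0.03, with 3 of 15 that rose, 1 that fell and 11 that did not pass. The number that rose was 1 without wild-type array 1 or 3 or knockout array 2, 2 without wild-type array 2 or knockout array 1, and 4 without knockout array 3, and 0 fell without any of these arrays except knockout array 1, where 2 fell. In the fit with the choroid plexus markers 1 rose and 0 fell (median 0.08), and on the 3 arrays with low Ttr 1 rose and 0 fell (median 0.14).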

How the data were processed

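RNA from cerebellum of 6 mouse samples at postnatal day 7 was extracted with Trizol and labelled for Affymetrix arrays, per the labels' protocols. The deposited values are log2 expression values, 1 per probe set and array, and the authors' processing notes name RMA and oligo, without versions. Their build, annotation and filters were not given in the sources used here. Values came for 41345 probe sets, of which the platform annotation gave 1 symbol to 23521, several to 1814 and none to 16010. Only the first were named. Each of 22180 genes was represented by its brightest probe set (mean of all 6 arrays) and tested with limma 3.58.1 in R 4.3.3 (lmFit, eBayes with a mean-variance trend, two-sided, Benjamini-Hochberg over all genes). Array medians were 7.25 to 7.29. No detection call came with the values, and precision is limited by how few arrays there are.

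The SOX members, the gene lists and the rule for named genes (Crebbp, all SOX genes, the 3 members of each other list with the smallest p, and every gene past the threshold where 4 or fewer of a list passed) were chosen with earlier results of these data known. Alternatives were another prior variance, dim genes left out, 2 normalizations, weighted arrays, a block on the replicate number, the mean of all probe sets, 2 thresholds, choroid plexus values as a covariate, the arrays with Ttr above 10 left out, and each array left out in turn. List counts under 4 of these were added after the data had been seen. The fit was tested on simulated data. Promoter sequences came from a RefSeq table (GRCm38.p6). Python 3.11.15, pandas 2.3.3 and matplotlib 3.10.9 served for joins, motif searches and plots.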

Additional observations from a re-analysis of the deposited data

How the results depend on the processing

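The change of Sox12 kept its direction in all 16 other fits (-0.49 to -0.38) and passed in 15 of them. Sox4, Sox11 and Sox5 stayed below 0 in all 16 and Sox9 above 0. On the 3 arrays with Ttr below 10 (1 of them a knockout array, taken to vary like the wild type) the change of Sox12 was -0.38 and did not pass, that of Sox1 was 0.25, Sox2 0.018, Sox3 0.073, Sox6 0.066 and Sox8 0.11 (these 5 lay below 0 with 6 arrays), SoxC minus the other 7 members was -0.26, 0 members and 0 other SOX genes fell, and 112 genes rose and 124 fell. With the choroid plexus covariate Sox1 (0.14), Sox3 (0.048) and Sox8 (0.051) turned sign, 0 other SOX genes fell, and 278 genes rose and 311 fell. Sox1 also turned sign after repeated quantile normalization (0.0018) and with array weights (0.010). Leaving out single arrays gave -0.10 to 0.12 for Sox1, -0.093 to 0.036 for Sox3 and -0.16 to 0.018 for Sox8, with 0 to 1 other SOX genes that fell, 199 to 478 genes that rose and 366 to 800 that fell. Other shifts in counts came from leaving the trend out of the prior variance (184 rose, 310 fell, 0 other SOX genes fell) and from the thresholds: 1023 rose at an adjusted p under 0.1, where Sox4 passed (-0.26, 2 members), and 148 rose and 343 fell under 0.01 (0 other SOX genes). The cause of these shifts was not tested.

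Deviations from the group means correlated at 0.01, 0.03 and -0.13 between arrays of the same replicate number. With 3 arrays a group these values cannot settle whether the numbers pair the arrays. With the replicate block 723 genes rose and 1078 fell, Sox4 passed (-0.26, adjusted p = 0.00915), so that 2 members fell, and 0 other SOX genes fell. No detection call came with the values.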
